A study of Mus musculus with 3 samples.

Results

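The sarcomere is the contractile unit of striated muscle. The genes described here encode its embryonic and perinatal myosin heavy chains (Myh3, Myh8), its myosin light chains (Myl1, Myl4, Mylpf), its sarcomeric actins (Actc1, Acta1), a skeletal tropomyosin (Tpm2), and the giant ruler proteins titin (Ttn) and nebulin (Neb). These 10 genes were taken by symbol from the gene rows of the count tables, and all 10 were present among 16181 genes. The samples were 3 cerebella of Math1-Cre/Eed fl/fl (Eed cKO) mice at postnatal day 7 (P7), 1 mouse per library, untreated, with no other genotype analysed here. Math1-Cre drives Cre recombinase in the Atoh1 (Math1) lineage, which forms the cerebellar granule neuron progenitors (CGNPs) and granule neurons (CGNs), so cells outside that lineage in the same mice were not its target. The mice were on a C57BL/6 background. Eed encodes a core subunit of Polycomb Repressive Complex 2 (PRC2), which places the repressive mark H3K27me3. Drop-seq tags the 3' end of each captured transcript with a unique molecular identifier (UMI), and each UMI stands for 1 captured molecule.

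In vertebrate skeletal muscle, myogenic transcription factors such as MYOG switch on contractile genes as myoblasts leave the cell cycle and differentiate. The first fibres use embryonic and cardiac-type isoforms, such as MYH3, MYL4 and ACTC1, and adult fibres later use others, such as MYH2, MYH4, MYH7 and mostly ACTA1. Neurons and glia build their cytoskeleton from nonmuscle myosins, cytoplasmic actin and other tropomyosins, and do not form sarcomeres.

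Promoter sequences are shown for Actc1, Acta1 and Mylpf, since Actc1 and the other 2 differed in the cells that held them and in how they varied with Myog. They come from RefSeq on build GRCm38.p6, which listed a promoter for 9 of the 10 genes (Neb had no entry). The lines below read 5' to 3' on the gene's own strand, and capitals mark the matches to the motifs searched. Acta1 is shown for the 250 bases before its annotated start on the minus strand, at chr8:123894776-123895025, and Mylpf for the same length on the plus strand, at chr7:127211358-127211607. Actc1 is shown only for 30 bases around its match, on the minus strand at chr2:114052903-114052932. The annotated starts here are those of RefSeq, while the gene positions given further below come from GENCODE M21. By those positions the stretches of Mylpf and Actc1 lie inside the genes.
Actc1: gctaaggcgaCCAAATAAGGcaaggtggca
Acta1: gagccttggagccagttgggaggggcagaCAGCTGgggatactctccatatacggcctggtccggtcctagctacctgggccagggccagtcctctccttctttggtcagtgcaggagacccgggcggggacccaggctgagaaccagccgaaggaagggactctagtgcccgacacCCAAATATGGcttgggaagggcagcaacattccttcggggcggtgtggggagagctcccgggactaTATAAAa
Mylpf: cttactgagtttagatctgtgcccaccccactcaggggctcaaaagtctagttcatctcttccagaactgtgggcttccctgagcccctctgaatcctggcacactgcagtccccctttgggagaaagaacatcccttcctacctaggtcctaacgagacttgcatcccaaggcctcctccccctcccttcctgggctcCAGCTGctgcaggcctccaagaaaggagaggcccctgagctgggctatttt

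The motifs were searched on both strands of the 250 bases before the start in all 32851 promoters of the table. The CArG box, the DNA element of serum response factor, was found in Actc1 and Acta1 among the 9 member promoters and in 1.47% of all promoters. The E-box CAGCTG, a sequence that myogenic factors can bind, was found in 4 of the 9 (Myl1, Tpm2, Mylpf and Acta1) and in 13.0% of all. The E-box CACCTG was found in Ttn alone and in 17.22% of all, and the MEF2 site was found in Ttn and Myh8 and in 2.92% of all. TATAAA was found in Myl1, Acta1, Myh3 and Myh8 and in 12.37% of all, and it can overlap a MEF2 site, as it does in Myh8. No motif searched was found in Myl4, whose window overlaps an exon of another gene, Cdc27. The windows of Myl1, Actc1 and Tpm2 overlap exons of their own genes. These are matches of letters in a window, and no binding was measured.

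The tables held 1401, 936 and 1144 barcodes for mice 1, 2 and 3, no barcode was shared between mice, and filters on depth and mitochondrial share left 918, 547 and 908 cells with a median of 1032 UMIs. Clusters were drawn with the 10 genes and all other listed contractile genes held out. A cluster of 76 cells, 27, 21 and 28 in mice 1, 2 and 3, was named myoid-like from markers outside these lists. It was led by Myog, Tceal7, H19, Cox6a2 and Sln, and it made up 2.94%, 3.84% and 3.08% of the mice's cells. The 21 muscle markers measured summed to 11727 to 13510 UMIs per 1000000 UMIs (CPM) in these cells and to 160 to 229 in all other cells. The 8 pericyte markers summed to at most 50.04 CPM in them, with 6 of the 8 at 0, and the 5 vascular fibroblast markers to at most 24.4, with 3 at 0. The heart regulators Nkx2-5, Gata4 and Tbx5 had 2, 1 and 0 UMIs there, and the smooth muscle genes Tagln and Myh11 had 1 and 0. Smtn, also a smooth muscle gene, had 49 UMIs there, at 338 ± 58.5 CPM against 14.9 ± 7.08 in other cells, and was called higher (log2 4.68 ± 0.43, edgeR adjusted p = 9.29e-14), though it passed the filter on low counts through the myoid-like sums. Eed itself was sparse, at 25.0, 0 and 36.5 CPM in the myoid-like cells of mice 1, 2 and 3, 29.98, 14.0 and 22.0 in CGNP/CGN-like cells, and 63.0, 80.4 and 42.8 in cells outside the lineage. With no control genotype analysed here, and 3' tags that need not cover the deleted exons, these values do not check the deletion.

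The myoid-like cells carried 1424, 342 and 2605 UMIs of the 10 genes in mice 1, 2 and 3, which was 3.56%, 1.62% and 3.17% of all their UMIs, or 3.40%, 2.61% and 3.14% with no upper limit on depth. In all other cells together the 10 genes made up 0.0192%, 0.0112% and 0.0155%. All 10 genes were higher in myoid-like cells in 3 of 3 mice, and the groups did not overlap for any of them. Of all 5846 genes tested, 17.3% were higher and 33.1% lower in 3 of 3 mice, and 12.1% were higher and 25.2% lower with no overlap. For each mouse the UMIs of a cell group were added up, and the quasi-likelihood test of edgeR was run on these sums over 5846 genes, of which 7.32% were called higher and 11.7% lower at an adjusted p below 0.05. All 10 members passed the filter on low counts, which their counts in the myoid-like cells alone allowed, so a difference was built into passing, and all 10 were called higher, with log2 fold changes from 6.19 to 9.12, a median of 7.79, and a median over all genes of -0.16. The clusters were drawn from the same cells, so these p-values set the difference against the spread between the 3 mice and are no independent selection of cells. In these sums, fewer cells that use a gene and less of its RNA per cell cannot be told apart.

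**Figure D1:**
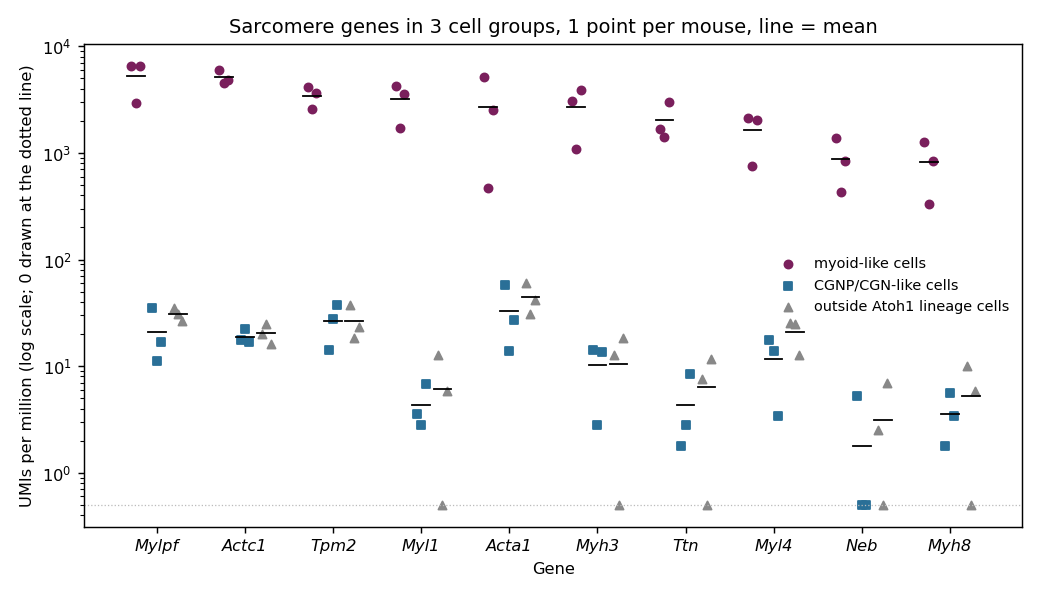
Level of each of the 10 genes (CPM, log axis) in myoid-like cells, CGNP/CGN-like cells and cells outside the Atoh1 lineage, with 1 point per mouse and a line at the mean of the 3 mice. Every myoid-like point lies above every point of the other groups for the same gene, and the lowest of them is Myh8 in mouse 2 at 332 CPM.

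The myosin heavy chains form the thick filament and hold its motor. Myh3, the embryonic heavy chain (chr11:67078300-67102291, plus strand), stood at 3078, 1090 and 3909 CPM in the myoid-like cells of mice 1, 2 and 3 and at 13.5, 1.92 and 16.5 CPM in all other cells. With the upper limit on depth its level was lower in mouse 2 than in mice 1 and 3, while without that limit the mice stood at 3935, 3310 and 3872 CPM. The cell groups did not overlap, and its log2 fold change was 7.85 ± 0.41 (SE, n = 3 mice per group, edgeR adjusted p = 1.26e-23). Myh8, the perinatal heavy chain encoded in the same cluster of genes (chr11:67277124-67308634, plus strand), stood at 1276, 332 and 840 CPM against 5.19, 3.85 and 4.81. Mouse 2 was lowest, but with no upper limit on depth the mice stood at 1354, 1007 and 832 CPM and mouse 3 was lowest. The log2 fold change was 7.46 ± 0.42 (edgeR adjusted p = 1.28e-22). Genes of this cluster share long stretches of sequence, and how reads that match several of them were assigned is not given in the sources used here.

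The light chains bind the neck of the myosin heavy chain. Myl1, the fast essential light chain (chr1:66924295-66945404, minus strand), stood at 4279, 1707 and 3544 CPM against 7.26, 1.92 and 6.19 in other cells. Its log2 fold change of 9.12 ± 0.41 was the highest of the 10 (edgeR adjusted p = 1.78e-26). Myl4, the essential light chain of embryonic muscle and of the atria (chr11:104550663-104595753, plus strand), stood at 2127, 758 and 2034 CPM against 20.7, 17.3 and 8.94. Mouse 2 was lowest in the myoid-like cells, but with no upper limit on depth the mice stood at 2220, 2216 and 2014 CPM. The log2 fold change was 6.86 ± 0.38 (edgeR adjusted p = 6.63e-23). Mylpf, the fast regulatory light chain (chr7:127208890-127214298, plus strand), stood at 6555, 2939 and 6491 CPM against 35.3, 17.3 and 22.7. With 857 UMIs it was the most counted of the 10, and its log2 fold change was 7.74 ± 0.37 (edgeR adjusted p = 1.58e-25).

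The sarcomeric actins form the thin filament. Actc1, named for the heart but also the main sarcomeric actin of embryonic skeletal muscle (chr2:114047282-114053548, minus strand), stood at 5980, 4503 and 4834 CPM against 18.7, 23.1 and 16.5 in other cells. These 3 mice were close to each other, with an SD of 775 around a mean of 5106, and the log2 fold change was 8.07 ± 0.34 (edgeR adjusted p = 2.03e-27). Acta1, the actin of adult skeletal muscle (chr8:123891769-123894751, minus strand), stood at 5129, 474 and 2545 CPM against 59.1, 19.2 and 35.8. Its SD of 2332 was close to its mean of 2716, with mouse 1 far above and mouse 2, with 10 of the 424 UMIs, far below. Even so the lowest myoid-like value was above the highest value elsewhere, and the log2 fold change was 6.19 ± 0.42 (edgeR adjusted p = 9.02e-19). With no upper limit on depth Acta1 stood at 4242, 2159 and 2521 CPM in the myoid-like cells of mice 1, 2 and 3. Tpm2, the β-tropomyosin that lies along the thin filament (chr4:43514711-43523765, minus strand), stood at 4153, 2560 and 3665 CPM against 23.9, 25.0 and 28.9, a log2 fold change of 7.06 ± 0.33 (edgeR adjusted p = 1.01e-25).

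Titin spans from the Z-disc to the M-band and nebulin runs along the thin filament. Ttn (chr2:76703980-76982547, minus strand) stood at 1676, 1422 and 3020 CPM against 4.15, 1.92 and 10.3 in other cells, a log2 fold change of 8.32 ± 0.40 (edgeR adjusted p = 3.50e-25). Mouse 3 was the highest, and 122 of its 248 Ttn UMIs came from 1 cell. Without that cell mouse 3 stood at 1639 CPM, between the other mice. With the highest cell left out of each mouse they stood at 1103, 1034 and 1639 CPM, and mouse 3 was still the highest. Neb (chr2:52136647-52378474, minus strand) stood at 1376, 427 and 840 CPM against 4.15, 0 and 4.13, a log2 fold change of 8.02 ± 0.44 (edgeR adjusted p = 6.63e-23). Ttn, Neb, Actc1, Acta1 and Myl4 each overlap an annotated gene on the other strand, and whether counting used the strand is not given in the sources used here. The positions above are those of the GENCODE M21 annotation on GRCm38.

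Ordered by mean level in the myoid-like cells, the 10 genes ran from Mylpf (5328 ± 2069 CPM, SD, n = 3) and Actc1 (5106 ± 775) through Tpm2 (3460 ± 816), Myl1 (3176 ± 1325), Acta1 (2716 ± 2332), Myh3 (2692 ± 1448), Ttn (2040 ± 859) and Myl4 (1640 ± 765) to Neb (881 ± 476) and Myh8 (816 ± 473). These are levels of 3' tags, which do not grow with transcript length, so no length was divided out. The ranges of neighbours in this order overlapped over the mice except those of Actc1 and Tpm2, 4503 to 5980 and 2560 to 4153. Myl4 stood above Neb in each mouse, with overlapping ranges. With no upper limit on depth (85 myoid-like cells) the order changed, with Myh3 (3706 CPM) above Tpm2 (3412), and in mouse 2 Mylpf went from 2939 to 5210 CPM and Neb from 427 to 748. Wherever the limit was dropped the clusters were also redrawn, so the cells and the limit changed together.

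Against CGNP/CGN-like cells alone (1193 cells), the same 10 genes were called higher with edgeR, with log2 fold changes from 6.39 (Acta1) to 9.39 (Myl1), adjusted p from 3.15e-21 (Actc1) to 6.59e-14 (Acta1), and a median of 7.99 beside -0.09 over all genes. Of the 4811 genes tested, 8.96% were called higher and 11.5% lower. Here too the members passed the filter on low counts through the myoid-like sums, so a difference was built into passing. In 3 of 3 mice 18.5% of them were higher and 32.1% lower, with no overlap for 13.0% and 23.3%, and all 10 members were higher with no overlap. Neb had 3 UMIs in all CGNP/CGN-like cells, so its level there as a share of the myoid-like level is known only within its counting interval. The 2 comparisons share the myoid-like sums and are not independent.

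The embryonic and later isoforms were compared as shares of a family's UMIs within the myoid-like cells. Of the sarcomeric heavy chain UMIs, Myh3 took 63.7%, 63.9% and 70.5% in mice 1, 2 and 3, a mean of 66.1% ± 3.89 (SD, n = 3). The exact binomial 95% intervals were 56.5 to 70.5%, 46.2 to 79.2% and 66.1 to 74.7%, on 193, 36 and 455 UMIs, and they overlap. Intervals and limits here cover counting error only. Myh8 took 26.4%, 19.4% and 15.2%, and its intervals in mice 1 and 3, 20.4 to 33.2% and 12.0 to 18.8%, do not overlap. The later and cardiac heavy chains together (Myh2, Myh4, Myh7, Myh7b and Myh6) took 9.84%, 16.7% and 14.3%, or 10.1%, 7.41% and 14.3% with no upper limit on depth. Among them Myh7b, an ancient heavy chain also found in brain, had 4, 3 and 38 UMIs in mice 1, 2 and 3, or 100, 142 and 463 CPM, most of them in mouse 3. Myh7, the slow and cardiac heavy chain, had 6, 0 and 19 UMIs.

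The fast adult heavy chains Myh2 and Myh4 had 3, 0 and 0 UMIs and 6, 1 and 0 UMIs. Myh1 was not analysed here. Of these later isoforms only Myh7b passed the filter on low counts, and it was called higher in myoid-like than in other cells, with a log2 fold change of 4.16 ± 0.45 (edgeR adjusted p = 4.26e-11). Like the members it passed through the myoid-like sums. In other cells it stood at 13.5, 17.3 and 18.6 CPM, beside 13.5, 1.92 and 16.5 for Myh3, so that they differed mainly in mouse 2, where Myh3 had 1 UMI. Without the filter, 4 of the 6 later isoforms in the tables (Myh4, Myh7, Myh7b and Myh6) were called higher, and Myh2 and Myl3 were not.

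Actc1 took 53.8%, 90.5% and 65.5% of the UMIs of Actc1 and Acta1 in mice 1, 2 and 3. The intervals were 49.1 to 58.5%, 83.2 to 95.3% and 61.6 to 69.3%, so the mice differed by more than counting error. This spread was in Acta1, and single cells held 92 of the 205 Acta1 UMIs of mouse 1, 7 of the 10 of mouse 2 and 95 of the 209 of mouse 3. In mouse 2, 2 barcodes excluded for high depth held 44 and 21 Acta1 UMIs. With no upper limit on depth the Acta1 level of mouse 2 was 2159 CPM and the Actc1 shares were 56.4%, 68.5% and 65.5%, with the intervals of mice 2 and 3 overlapping. Reads in the coding parts of the actins are close to identical between genes. The cytoplasmic actin Actg1, which nearly all cells use, had 7 UMIs in all filtered cells. How the counting treated reads that match several actins is not given in the sources used here, and its effect on the actin counts was not tested.

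Of the essential light chains, Myl4 took 33.2%, 30.8% and 36.0% and Myl1 took 66.8%, 69.2% and 62.7%. Their exact intervals overlap between the mice, but not with no upper limit on depth, where Myl4 took 37.2%, 52.0% and 36.0% and the interval of mouse 2, 43.7 to 60.3%, lay above those of mice 1 and 3 (31.9 to 42.6% and 31.6 to 40.5%). Myl3, the slow and ventricular light chain, had 0, 0 and 6 UMIs, which allows a share of up to 1.43% and 6.85% in mice 1 and 2 by the exact interval. The partners of Mylpf, Myl2 and Myl7, were not analysed here, so no share was computed for it. Of the tropomyosin UMIs Tpm2 took 76.5%, 77.1% and 74.3% in the myoid-like cells and 2.09%, 2.22% and 2.98% in all other cells.

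**Figure D2:**
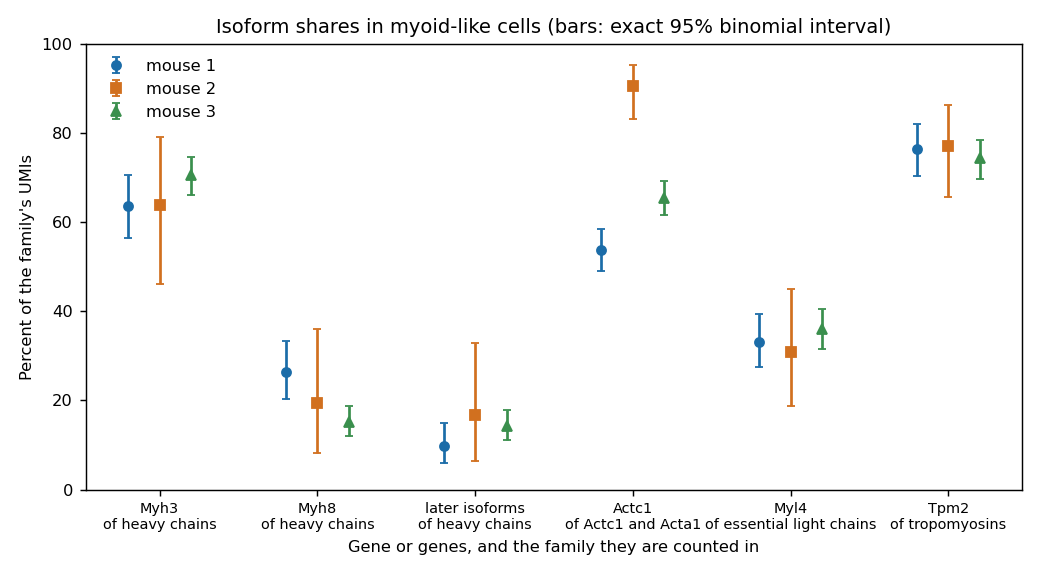
Share of each family's UMIs in myoid-like cells (percent), with 1 point per mouse and the exact 95% binomial interval as the bar. The intervals of the 3 mice overlap for Myh3, Myl4 and Tpm2 (for Myl4 only with the upper limit on depth). Those of Myh8 do not overlap between mice 1 and 3, and the share of Actc1 lies at 53.8% in mouse 1, 90.5% in mouse 2 and 65.5% in mouse 3.

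The 76 myoid-like cells were far from uniform. The share of a cell's UMIs from the 10 genes ran from 0% to 8.38%, with a median of 1.08%. The mean of the mouse medians was 1.10%, and it was 2.19% when only cells of at least 1000 UMIs were used. There were 7 cells with no member UMI, 5 of them with Myog, and 16 cells with all 10 genes. The number of members seen, compared in ranges set after the values were seen, was 0 to 3 in 36 cells (11, 13 and 12 in mice 1, 2 and 3), 4 to 7 in 17 cells (7, 5 and 5) and 8 to 10 in 23 cells (9, 3 and 11). Depth moved with these ranges, with medians of 961.5, 1181 and 2652 UMIs, and its part in them was not tested. To set depth aside, the chance of seeing each gene was also computed with every cell thinned to 500 UMIs.

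Actc1 was the most widely seen, in 64 of 76 cells (84.2%, and 75.8% after thinning), followed by Tpm2 in 59 (61.0% after thinning) and Myl1 in 46 (48.0%). Mylpf, the gene with the most UMIs, was seen in only 27 cells (33.1% after thinning), at a median of 21 UMIs in those cells. Myh3 was seen in 37 cells, Ttn in 31, Acta1 in 28, Myl4 in 27, Neb in 24 and Myh8 in 21. There were 38 cells with Actc1 and no Mylpf UMI (15, 12 and 11 in mice 1, 2 and 3) and 1 cell with Mylpf and no Actc1 UMI. Each of the 28 cells with Acta1 and each of the 24 with Neb also held Actc1, while 36 and 40 cells held Actc1 without them. All 27 cells with Mylpf also held Tpm2. The other 7 members had 1 to 3 cells each without Actc1.

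In the cells with 0 to 3 members, Actc1 already stood at 4878, 5552 and 2139 CPM in mice 1, 2 and 3, beside 6271, 1924 and 5723 in the cells with 8 to 10. Its level overlapped between the ranges. The 1924 of mouse 2 rests on 3 cells, and with no upper limit on depth Actc1 stood at 3861, 4683 and 2073 CPM in the cells with 0 to 3 members and at 6120, 4882 and 5723 in those with 8 to 10, higher in the latter in 3 of 3 mice. Mylpf had 0 UMIs in the 36 cells with 0 to 3 members and stood at 12690, 11541 and 11642 CPM in those with 8 to 10. Myh3 went from a mean of 13.5 through 1604 to 4886 CPM over the 3 ranges, and Tpm2 from 1023 through 3542 to 5246. The ranges count the members, so a rise of some members is built into them, and these are descriptions with no test.

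**Figure D3:**
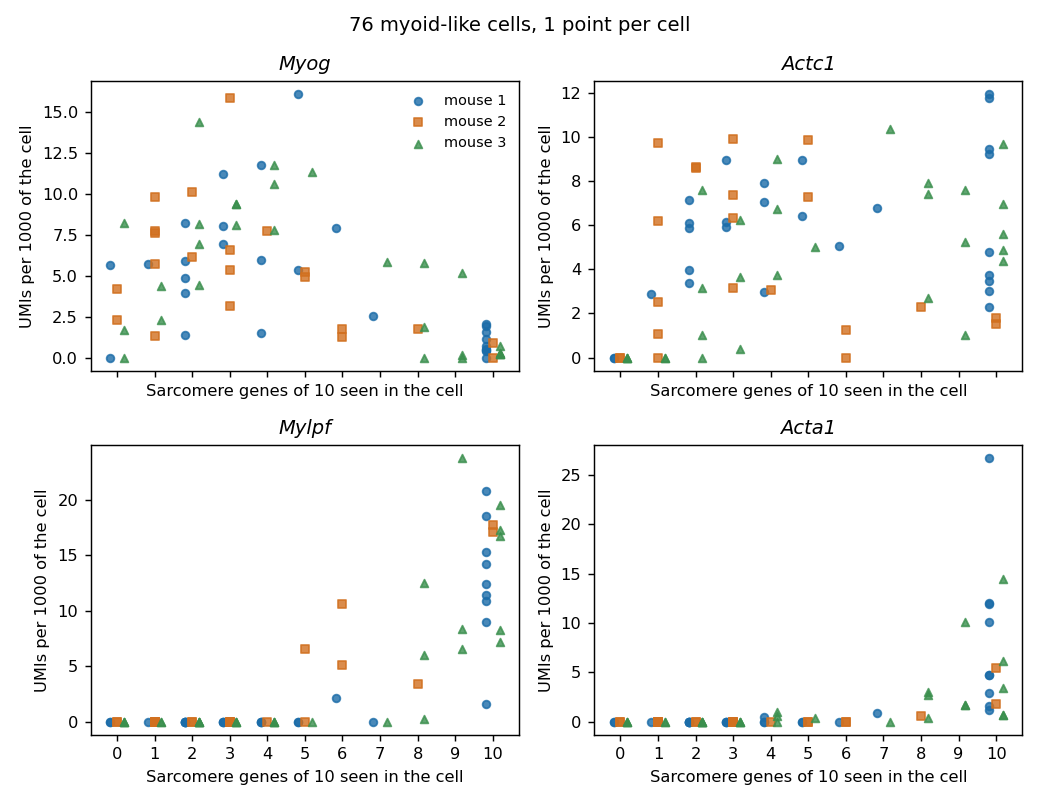
UMIs of Myog, Actc1, Mylpf and Acta1 per 1000 UMIs of the cell (y axes) against the number of the 10 sarcomere genes seen in it, with 1 point per myoid-like cell (n = 76). Actc1, itself 1 of the genes counted, is found in cells with 0 to 3, 4 to 7 and 8 to 10 members. Mylpf and Acta1 are at 0 in the 36 cells with 0 to 3 members. Mean Myog is 6531 CPM in those cells, 7161 CPM in the cells with 4 to 7 and 1046 CPM in the cells with 8 to 10.

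Myog, the gene of the myogenic factor that leads this cluster, is not a member, so the cells of each mouse were also split at its share of UMIs into Myog-high and Myog-low sets of equal size (13, 10 and 14 cells each in mice 1, 2 and 3). Median depth was 1312 UMIs in the Myog-high and 1661 in the Myog-low cells. Mylpf stood at 203, 0 and 535 CPM in the Myog-high cells of mice 1, 2 and 3, and at 10505, 6808 and 11461 in the Myog-low cells. Acta1 stood at 67.5, 0 and 268 against 8274, 1098 and 4446. Neither gene overlapped between the sets. Actc1 did not share this pattern, at 6348, 6439 and 5166 CPM in the Myog-high and 5800, 1867 and 4558 in the Myog-low cells, higher in the Myog-high set in 3 of 3 mice but with overlapping ranges. This order did not hold with no upper limit on depth, where the clusters were also redrawn. There Actc1 stood at 5187, 6669 and 5166 CPM against 5792, 3746 and 4640, higher in the Myog-high set in 2 of 3 mice and lower in mouse 1. The directions of Mylpf and Acta1 did not turn without the limit.

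The remaining 7 members were higher in the Myog-low cells in 3 of 3 mice, also with no overlap between the sets. Of the 962 genes with at least 30 UMIs in myoid-like cells, 19.2% were higher in the Myog-low cells in 3 of 3 mice and 21.6% lower, and 11.9% and 10.7% did so with no overlap. Means went from 529 to 4305 CPM for Myh3, from 31.4 to 1402 for Myh8, from 116 to 2892 for Myl4, from 482 to 3322 for Ttn, from 170 to 1445 for Neb, from 1331 to 4712 for Myl1 and from 1861 to 4746 for Tpm2. At 500 UMIs per cell, Mylpf would be seen in 4.46% ± 3.99 (SD, n = 3) of the Myog-high and 62.7% ± 3.87 of the Myog-low cells, and Actc1 in 87.2% ± 7.27 and 62.6% ± 19.8. These differences between sets of cells were not tested. Across the 76 cells, Spearman's rho between the shares of Myog and of each member ran from -0.69 (Mylpf) to -0.39 (Tpm2) for 9 members and was 0.23 for Actc1. These are descriptions across cells that share libraries and depth.

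**Figure D4:**
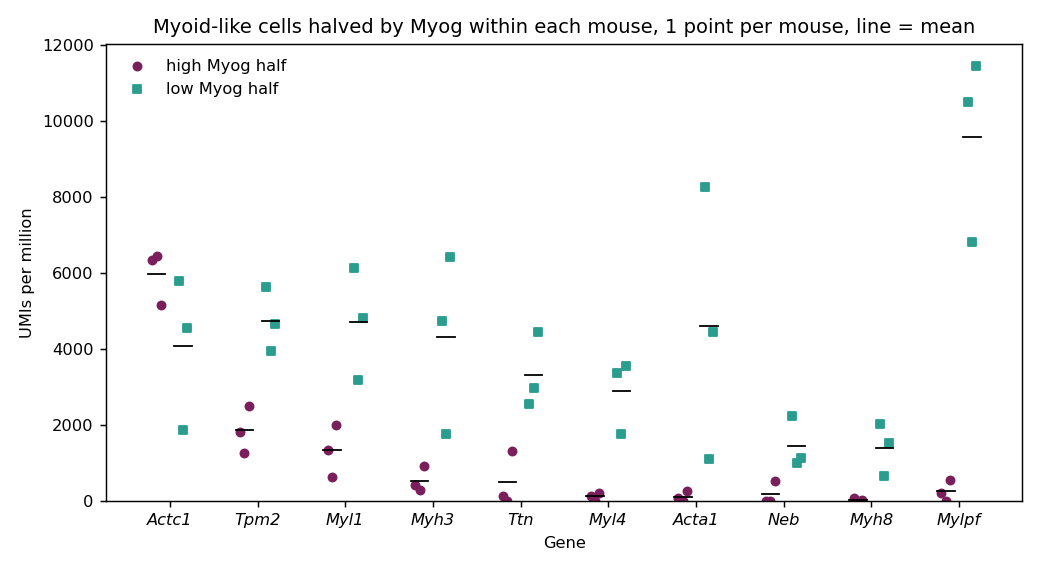
Level of each of the 10 genes (CPM) in the Myog-high and Myog-low cells of each mouse, with 1 point per mouse and a line at the mean of 3 mice. Actc1 is at 5166 to 6439 CPM in the Myog-high cells, while Mylpf goes from at most 535 CPM there to at least 6808 in the Myog-low cells.

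The 7 troponins in the tables, the calcium switch of the thin filament, were all tested and all called higher than in other cells. Tnnc2 (4736 ± 1812 CPM), Tnni1 (3156 ± 402) and Tnnt2 (2944 ± 636) had the highest levels, with log2 fold changes of 7.88, 8.08 and 8.75. Tnnc1, the slow troponin C, stood at 1446 ± 557 CPM, Tnnt1 at 1430 ± 854 and Tnni2 at 1028 ± 297. Of 33 other sarcomere genes in the tables, 18 passed the filter and all 18 were called higher, and without the filter 24 were. Cryab, a chaperone of the Z-disc, stood at 1794 ± 204 CPM, and Klhl41 at 1127 ± 91.7. Mybpc1, the slow myosin-binding protein C, stood at 668 ± 327 CPM, the intermediate filament gene Des at 543 ± 438, and Actn2, the Z-disc α-actinin, at 390 ± 256. Lmod3, a nucleator of thin filaments, stood at 358 ± 114 CPM with 1 UMI in all other cells. Like the members, these genes passed the filter through the myoid-like sums.

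The genes listed as nonmuscle and smooth muscle counterparts, of which Tpm1, Tpm3 and Myl6b are also used in striated muscle, did not move as 1 group. Of the 16 that were present, 11 were tested, 4 were called higher, 4 lower and 3 neither. Acta2, the smooth muscle actin also made by early skeletal muscle cells, rose to 510 ± 151 CPM from 18.9 ± 8.39, a log2 fold change of 4.87 ± 0.38 (edgeR adjusted p = 2.86e-16). Tpm1 stood at 794 ± 282 CPM against 203 ± 11.3 (log2 2.09 ± 0.29), and Myl12a at 829 ± 63.8 against 328 ± 44.9 (log2 1.34 ± 0.27). Myl6b was also called higher. Acta2 and Myl6b, sparse elsewhere, passed the filter through the myoid-like sums. Actb, the cytoplasmic actin, fell to 2359 ± 536 CPM from 5456 ± 513, a log2 fold change of -1.21 ± 0.25 (edgeR adjusted p = 0.000225). Tpm4 and Myh10, named here after their values were seen, fell to 69.7 and 85.3 CPM from 353 and 305.

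Tpm3 stood at 237 ± 122 CPM against 499 ± 11.7 (log2 -1.12 ± 0.34, edgeR adjusted p = 0.0126), a call that was lost without mouse 2 (adjusted p = 0.0538) or without mouse 3 (0.172). Myl12b stood at 496 ± 63.3 CPM against 390 ± 24.5 and was not called (edgeR adjusted p = 0.384). Myl6 and Myh9 were not called either. Of all actin UMIs, the sarcomeric Actc1 and Acta1 made up 81.9%, 62.9% and 69.3% in the myoid-like cells of mice 1, 2 and 3, and 1.39%, 0.848% and 0.869% in all other cells. Over the 3 ranges of members seen, Acta2 stood at means of 27.6, 522 and 935 CPM and Actb at 3480, 1340 and 1710.

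Among genes outside the contractile lists, those most like the summed members were Apobec2 (r = 0.91), Ckm (0.90), Chrna1 (0.90), Tceal7 (0.90) and Sln (0.89). Pearson's r was taken of log2(CPM + 20) over 36 sums of cell type and mouse. Ckm, Chrna1 and Sln were among the muscle markers that named the myoid-like cluster, and Tceal7 and Sln led it. For Ckm, Chrna1 and Sln a high r was thus built in. All 36 sums share libraries, and the members stood at 0 to 666 CPM in the sums outside the myoid-like cells and at 16212 CPM or more in the 3 myoid-like sums. Ckm, the muscle creatine kinase, stood at 341 ± 84.7 CPM in myoid-like cells and 0.921 ± 1.06 in others. Sln, a regulator of the muscle calcium pump, stood at 1497 ± 557 and 3.33 ± 2.89 CPM, and Chrna1, a subunit of the muscle acetylcholine receptor, at 251 ± 44.7 and 0.229 ± 0.397. Within the myoid-like cells Ckm had 0 UMIs in cells with 0 to 3 members and 53 in those with 8 to 10.

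Outside the myoid-like cells the members were sparse. Of 2297 other cells, 1909 (83.1%) had no member UMI, 322 had 1, 54 had 2, 10 had 3 and 2 had 4, and no cell held more than 3 of the 10 genes. In shares of cells with any member UMI, 16.9% of the other cells (median depth 1024 UMIs) had one, beside 90.8% of the myoid-like cells (median depth 1362.5). At 500 UMIs per cell these shares were 7.39% and 86.1%. Myeloid-like and endothelial-like cells, which should lack sarcomeres, had a member UMI in 26.5% and 25.0% of cells at median depths of 958 and 1208.5 UMIs. The share in CGNP/CGN-like cells was 14.8% at a median depth of 1029 UMIs, below both.

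The 10 genes were not at the same fraction of their myoid-like level in the other cells. The highest was Acta1, at 1.37% of its myoid-like level over the 3 mice (95% interval 1.11 to 1.68%), and the lowest was Myl1, at 0.166% (0.0961 to 0.269%). These intervals do not overlap. In single mice the Acta1 percentages were 1.15, 4.06 and 1.40 and those of Myl1 were 0.170, 0.113 and 0.175, so Acta1 was the higher in 3 of 3. The value of mouse 2 rests on 10 myoid-like Acta1 UMIs, and with no upper limit on depth the Acta1 percentages were 1.37, 1.03 and 1.49 and those of Myl1 were 0.209, 0.0904 and 0.163. Actc1 was at 0.360% (0.268 to 0.475%) and Mylpf at 0.432% (0.337 to 0.547%). Summed over the members the fraction was 0.539%, 0.688% and 0.488% in mice 1, 2 and 3, or 0.559%, 0.438% and 0.507% with no upper limit. Whether these UMIs were free RNA or transcripts of the cells was not tested.

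**Figure D5:**
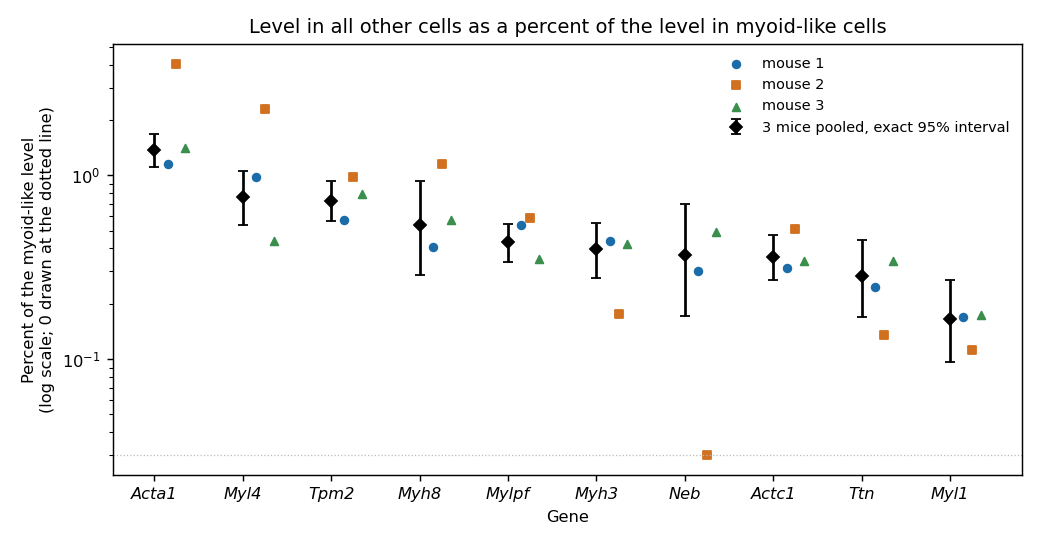
Level of each gene in all other cells as a percent of its level in myoid-like cells (log axis), pooled over mice with the exact 95% interval (diamonds) and for each mouse. Acta1 lies highest at 1.37% and Myl1 lowest at 0.166%, and their intervals do not overlap.

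By cell type, the sum of the 10 genes ran from 132 CPM in differentiating CGNP/CGN-like cells to 375 CPM in the 26 pericyte-like cells. The pericyte-like value rests on 10 UMIs, and its counting interval of 180 to 690 CPM lies just above that over all other cells together (145 to 174), which include it. Of these 10 UMIs 5 were Tpm2, all in mouse 1, and Tpm2 made up 7 of the 15 member UMIs in the 48 vascular fibroblast-like cells. TPM2 is also made by smooth muscle and related cells. Myl4 had 8 of its 42 UMIs outside the myoid-like cells in the 52 endothelial-like cells, 7 of them in mouse 1. No cell type came near the myoid-like sum of 30528 CPM.

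CGNP/CGN-like cells, the lineage that Math1-Cre targets, were then compared with the 1104 cells outside the Atoh1 lineage. The sum of the members stood at 169, 103 and 134 CPM in the CGNP/CGN-like cells of mice 1, 2 and 3, and at 224, 130 and 169 CPM outside the lineage. It was lower in the CGNP/CGN-like cells of 3 of 3 mice, with overlapping ranges over the mice, and this difference in the sum was not tested. Only Mylpf, Acta1 and Tpm2 passed the filter on low counts, and edgeR called none of the 3, nor did DESeq2, and none had an unadjusted p below 0.05. In this comparison 4.02% of 7704 genes were called higher and 8.02% lower, or 714 and 900 genes with the mouse as a block instead of 310 and 618, which still called no member.

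Mylpf stood at 35.3, 11.2 and 16.9 CPM in CGNP/CGN-like cells and 35.3, 30.9 and 26.6 outside (log2 -0.45 ± 0.44, edgeR adjusted p = 0.600). Acta1 stood at 58.2, 14.0 and 27.1 against 60.5, 30.9 and 41.7 (log2 -0.40 ± 0.43, edgeR adjusted p = 0.635). Tpm2 stood at 14.1, 27.9 and 37.2 against 37.8, 18.5 and 23.2 (log2 -0.04 ± 0.44, edgeR adjusted p = 0.978). Without the filter all 10 members were tested and none was called, with a lowest adjusted p of 0.609. In that run 512 of 16136 genes were called higher and 1048 lower. Of the listed counterparts, 9 were tested and 1 was called, Tpm1, which fell by 0.87 on the log2 scale (edgeR adjusted p = 0.0268), while without the filter 4 of 16 were called lower. Of the other sarcomere genes 4 were tested and 3 called lower in CGNP/CGN-like cells, Nebl, Cryab and Pdlim3 (the first and last named after their values were seen), and without the filter only 1 of 33, Nebl. With the mouse as a block the adjusted p-values of Mylpf, Acta1 and Tpm2 were 0.431, 0.404 and 0.999. No single member was called at this depth, which does not show that the levels were equal.

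Myog-positive cells were also sought outside the cluster. There were 35 other cells with a Myog UMI, and 2 of them had at least 5. In mouse 3 a differentiating CGNP/CGN-like cell of 2671 UMIs held 13 Myog UMIs and 4 member UMIs. In mouse 2 a proliferating CGNP-like cell of 1059 UMIs held 5 Myog UMIs and no member UMI.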

How the data were processed

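The authors deposited raw Drop-seq UMI counts per gene and barcode for 3 mice, aligned with STAR to mm10 per the labels (versions and counting settings are not given in the sources used here). Cells were kept with at least 500 UMIs, 200 genes and at most 10% mitochondrial UMIs, and at most 4 SD above the median of UMIs and genes, which stood in for a doublet caller. No wild-type library was analysed here, and Myh1, Myl2, Myl7 and Tnni3 were not analysed here.

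Cells were clustered with Seurat 5.3.0 and sctransform 0.4.2 (R 4.3.3; 3000 variable genes, 15 components, resolution 0.8) after holding out the contractile genes, and clusters were named "like" a type from markers. Sums over the cells of a group in 1 mouse went into edgeR 4.0.16 (TMM, filterByExpr, quasi-likelihood, Benjamini-Hochberg adjustment over all genes tested at 0.05). DESeq2 1.42.0, other scalings, filters, clusterings, depth limits and leaving out each mouse were alternatives. The test code was checked on simulated data. The members and all gene lists were chosen with earlier results of these data known. Beside the 10 members, the text names the 6 genes of each list with the highest mean CPM in myoid-like cells. It also names the 5 genes outside the contractile lists, cell type markers included, that were most correlated with the summed members. Any other gene was named after its values were seen.

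Sums of the 2 groups of a comparison come from the same mouse, so the numbers pair them. In mice 1, 2 and 3 the deviations of myoid-like sums correlated with those of the other cells at 0.115, 0.0989 and 0.213 and with CGNP/CGN-like sums at 0.126, 0.0835 and 0.191. Deviations within and outside the Atoh1 lineage correlated at 0.269, 0.197 and 0.375. Shares carry exact binomial 95% intervals, and library totals of 711290 to 1734000 UMIs set their precision. Each group is 1 condition, and p-values measure the spread between 3 mice.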

Additional observations from a re-analysis of the deposited data

Results flagged for a closer look

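Barcodes removed for their depth were not part of the comparisons and still held UMIs of the 10 genes above the level of the cells outside the myoid-like cluster, which was 192, 112 and 155 CPM in mice 1, 2 and 3. Below the lower limits on depth the 10 genes stood at 379 CPM in mouse 1, 363 in mouse 2 and 941 in mouse 3. Above the upper limits they stood at 6686, 16086 and 217 CPM. The 17 barcodes removed only for mitochondrial UMIs held 1 member UMI in all.

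In all, the 1108 removed barcodes held 1252 member UMIs, and 10 of them held at least 5 of the 10 genes. Of these, 5 lay above the limits, with 249 and 193 member UMIs in mouse 1, 254 and 312 in mouse 2, and 6 in mouse 3. All 10 genes were seen in each of the 4 barcodes of mice 1 and 2. The other 5 lay below the lower limits, with 11 to 27 member UMIs each. Whether the deep barcodes were single cells was not tested.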

How the results depend on the processing

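All 10 members were called higher in myoid-like cells under each of the 14 alternatives, against all other cells and against CGNP/CGN-like cells. Between CGNP/CGN-like cells and those outside the lineage no member tested was called, with Acta1 tested in 15 alternatives, Mylpf in 14, Tpm2 in 13 and the others in 1 to 3. With the mouse as a replicate block the counts were 10, 10 and 0. Leaving out 1 mouse at a time gave 10 to 10, 10 to 10 and 0 to 0 calls, a fraction in other cells of 0.513 to 0.614%, shares of 59.7 to 78.0% for Actc1, 63.8 to 67.2% for Myh3 and 32.0 to 34.6% for Myl4, and a median member share per cell of 1.01 to 1.15%. With no upper limit on depth the mean share of Myl4 was 41.7%, and with at least 1000 UMIs per cell the median member share was 2.19%. Between CGNP/CGN-like cells and those outside the lineage, the log2 fold change of Tpm2 turned from -0.04 to 0.011 with no filter on low counts, 0.19 at resolution 0.4 and 0.080 with no upper limit, and ran from -0.65 without mouse 3 to 0.60 without mouse 1, and was called in none of these. Redrawing the clusters also changed the cells compared. At resolution 0.4 a cluster of 525 cells was left unnamed and fell out of both groups, as did 1 of 198 cells with no upper limit. The causes were not tested. Beside the calls against all other cells given above, Tpm3 lost its call against CGNP/CGN-like cells without mouse 2 (adjusted p = 0.169) or mouse 3 (0.365). The other 902 values for single genes, counted over all alternatives, kept their direction and call. The other 86 summary values were counts of calls, which did not change, or shares, which have no call and still varied, as that of Actc1 did.

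Counts of calls over all genes moved more. Without mouse 3 (fewer samples), edgeR called 244 genes higher and 328 lower against all other cells, and 230 and 300 against CGNP/CGN-like cells. Between CGNP/CGN-like cells and those outside the lineage it called 714 and 900 with the mouse block, 93 and 309 without mouse 1, 150 and 459 without mouse 2, 512 and 1048 with no filter, 582 and 797 with no upper limit and 201 and 407 with at least 1000 UMIs per cell. Leaving out Purkinje-like cells, an alternative chosen after seeing the data, gave 298 and 662 and called no member. For myoid-like against all other cells, the median log2 fold change of all genes was -0.16, and it was -0.25 with DESeq2, -0.29, -0.33 and -0.33 without mice 1, 2 and 3, and -0.97 with no filter on low counts. Sparse counts outside the myoid-like cells, the 342 member UMIs of mouse 2 and the upper limit on depth limit the values.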
